A study of Mus musculus with 12 samples.

Results

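The hypoxia-inducible factor (HIF) system was followed through 10 mouse genes, which encode the HIF subunits (Epas1, Hif1a, Hif3a, Arnt, Arnt2), the oxygen sensors (the prolyl hydroxylases Egln1, Egln2 and Egln3 and the asparaginyl hydroxylase Hif1an) and the ubiquitin ligase subunit Vhl. A probe was taken as a member when its accession in the array files belonged to one of these genes. All 10 genes were found, with 17 of the 39429 probes besides controls, whereas 20144 genes could be named on the array in all. The arrays compared 2 mouse osteosarcoma cell lines, each at an early and a late passage, with 3 single-colour Agilent arrays per group. Dunn is a parental line with low metastatic potential and was at passage 25 (early) or 86 (late). LM8 is the metastatic line derived from Dunn by selection in mice and was at passage 24 (early) or 91 (late). The late cells of each line had been grown from its early cells. All groups were cultured in the same serum-containing medium in a CO2 incubator, and the labels name no treatment with low oxygen, drug or transgene. The labels do not say whether the 3 samples of a group came from separate cultures, so p-values measure the spread between these samples, which may be technical.

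HIF is a transcription factor made of an oxygen-regulated alpha subunit (Hif1a, Epas1, which encodes HIF-2alpha, or Hif3a) and a constant partner (Arnt or Arnt2). In the presence of oxygen, the prolyl hydroxylases mark the alpha subunit for binding by the Vhl protein and for destruction, and Hif1an blocks its coactivator contact. When oxygen is low, the alpha subunit accumulates and activates genes of glycolysis, iron and matrix metabolism and vessel growth, among them Egln1 and Egln3, which thereby limit the response. Most of this control acts on protein, and the arrays measured mRNA only.

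Levels are given as the log2 of a spot's processed signal minus the log2 of the 75th percentile of its array, so 0 is the brightness of that percentile and 1 unit is a 2-fold difference. Signals of different probes depend on their sequences and were not compared as levels of genes. The 12 arrays lay on 3 slides, each with 1 array of every group at a fixed position, so that position and group cannot be told apart. The 75th percentile signal was lowest on the early Dunn arrays (253.1 to 521.6) and highest on the late LM8 arrays (1033 to 1699), with 609.1 to 840.4 on the late Dunn and 788.2 to 1148 on the early LM8 arrays. On the scaled values all probes shifted by a median of -0.34 in late versus early Dunn cells, -0.21 in late versus early LM8 cells, -0.80 in LM8 versus Dunn cells with passages pooled, -0.87 between the lines at early passage and -0.69 at late passage. Over the 14723 probes well above background on every array with a value, with at least 2 such arrays per group, these medians were -0.26, -0.07, -0.33, -0.43 and -0.24. A change of a member is therefore read against these shifts. Late Dunn replicate 1 stood apart, with correlations of 0.908 and 0.909 with the other late Dunn arrays, which had 0.985 with each other. Of the fixed osteoblast markers, 7 of 8 were well above background by the same rule. The other was Col1a2, which was counted above background on 1 early Dunn array, where its group mean was 7.59. Of the 7 endothelial markers, Vwf and Kdr were above background on all 12 arrays, Pecam1 on 7 (0 early Dunn, 2 late Dunn, 2 early LM8 and 3 late LM8), Tek and Cldn5 on 1 each, both late Dunn, and Cdh5 and Emcn on none. The summed signal of the 7 endothelial markers, in multiples of the 75th percentile, lay between 8.74 and 14.6 for early Dunn and between 3.93 and 5.23 for the other groups. This sum rests mainly on Vwf. In early Dunn cells the log2 mean of Vwf was 3.25 and that of Kdr 0.62, while the other markers were at -5.28 or lower.

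Of the 17 member probes, 12 were well above background on every array on which they were measured, namely those of Epas1, Hif1a, Arnt, Egln2, Egln3, Vhl and Hif1an. The probe of Egln1 passed on 11 of 12 arrays and that of Arnt2 on 5. The 3 probes of Hif3a, the least characterised alpha subunit, passed on 1, 1 and 0 arrays, so its differences are those of signals near background.

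The promoters of the 3 prolyl hydroxylase genes are shown because these genes encode the same kind of enzyme, and because Egln1 and Egln3 are known HIF targets. Whether the levels of these genes differ from each other across the 4 groups was not tested. RefSeq windows on GRCm38.p6 were found for 9 of the 10 genes, all but Epas1. The 250 bases before each start are given 5′ to 3′ along the gene in lower case, with the core of the HIF response element in capitals (ACGTG or GCGTG, searched on both strands, so that CACGT and CACGC mark the opposite strand). All 3 genes lie on the minus strand, Egln1 at chr8:124949255-124949504, Egln2 at chr7:27166803-27167052 and Egln3 at chr12:54203875-54204124.
Egln1: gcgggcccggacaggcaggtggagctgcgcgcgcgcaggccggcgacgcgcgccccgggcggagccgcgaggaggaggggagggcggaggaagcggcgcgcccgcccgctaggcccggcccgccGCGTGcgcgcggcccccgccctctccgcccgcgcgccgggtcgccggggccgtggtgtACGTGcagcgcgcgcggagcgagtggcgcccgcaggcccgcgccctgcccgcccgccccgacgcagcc
Egln2: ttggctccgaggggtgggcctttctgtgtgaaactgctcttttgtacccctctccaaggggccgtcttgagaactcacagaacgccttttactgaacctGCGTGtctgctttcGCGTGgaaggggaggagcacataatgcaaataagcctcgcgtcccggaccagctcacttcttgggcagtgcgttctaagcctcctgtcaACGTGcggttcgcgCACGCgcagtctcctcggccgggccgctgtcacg
Egln3: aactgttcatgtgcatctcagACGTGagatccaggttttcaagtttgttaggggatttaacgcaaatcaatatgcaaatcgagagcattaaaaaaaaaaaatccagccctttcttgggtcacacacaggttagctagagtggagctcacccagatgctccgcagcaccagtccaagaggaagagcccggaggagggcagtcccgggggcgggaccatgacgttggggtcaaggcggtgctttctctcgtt
The Egln1 window held 2 cores and the printed Egln2 window 4, whereas the Egln3 window held 1, which began 229 bases before the start. Egln2 has a second start in the table, with its window at chr7:27165729-27165978 and 1 core. Where both strands of ACGTG meet in the letters CACGTG, these count as 2 cores. This was so in the Hif1a window, where such cores began 135 and 134 bases before the start. Among the other members, the windows of Hif1a held 3 cores, Hif3a 2 and Arnt 1, and those of Arnt2, Vhl and Hif1an held none. In all 32851 windows of this length, 16.6% held ACGTG, 28.2% GCGTG and 38.6% at least one of them. A match describes the letters only.

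Epas1 was the member with the widest range, and on the scaled values early Dunn cells had the highest level of all its probes. Before scaling, A_51_P250058 and A_55_P2053988 also had their highest median signal there (7710 and 1220). A_55_P2077448 had its lowest median signal there, with 957 against 1340 in late Dunn, 1600 in early LM8 and 1790 in late LM8 cells. Its brightest probe, A_51_P250058, had 4.51, 4.46 and 4.57 on the 3 early Dunn arrays, against 2.33, 2.73 and 2.80 on the late ones. The early LM8 arrays read 2.53, 2.76 and 2.46, and the late LM8 arrays 0.91, 1.38 and 1.93. Early Dunn cells lay above and late LM8 cells below all other arrays, while late Dunn (2.62 ± 0.25, SD, n = 3) and early LM8 cells (2.59 ± 0.16, SD, n = 3) overlapped.

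Probe A_55_P2053988 had a lower signal but the same order of groups. It read 1.65, 1.23 and 2.68 on the early Dunn arrays and -1.73, 0.16 and 0.46 on the late ones. For LM8 these were -0.65, -0.28 and -0.43 early, then -2.12, -1.65 and -1.30 late. Late Dunn cells overlapped both LM8 groups on this probe, as their array of slide 1 lay far below the other late Dunn arrays. Probe A_55_P2077448 spread far less. Early Dunn arrays read 1.5, 1.32 and 1.82, and late Dunn arrays 1.01, 0.93 and 1.03. Early LM8 arrays read 1.02, 0.67 and 0.45, and late LM8 arrays 0.65, 0.57 and 0.53. Early Dunn cells were again highest, but late Dunn cells overlapped early LM8 cells, and early LM8 cells overlapped late LM8 cells. Of the endothelial markers above background on all arrays, Vwf had means of 3.25, 1.97, 1.96 and 1.73 and Kdr of 0.62, -0.25, -0.39 and -0.41 (early Dunn, late Dunn, early LM8, late LM8), while Cdh5 and Emcn were above background on 0 of 12 arrays. The part of these markers in the Epas1 levels was not tested.

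**Figure D1:**
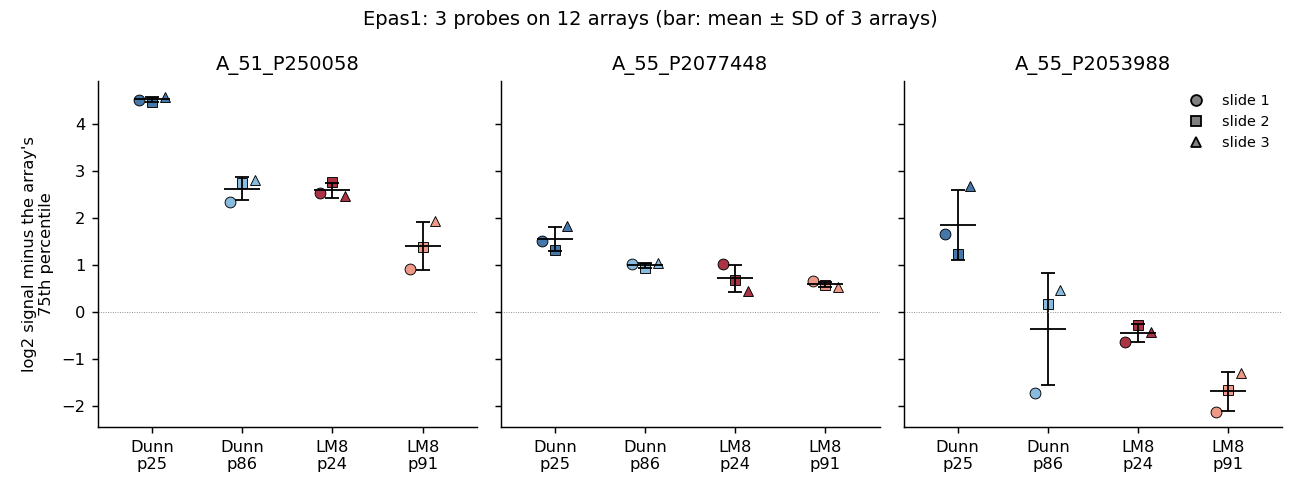
Level of the 3 Epas1 probes (log2 signal minus the array's 75th percentile, vertical axis) on the 12 arrays in the 4 groups, where each point is 1 array, its shape is the slide, and the bars give the mean ± SD of 3 arrays. Late minus early is -1.90 and -2.22 in Dunn and -1.18 and -1.23 in LM8 for A_51_P250058 and A_55_P2053988, and -0.56 and -0.13 for A_55_P2077448.

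Between early and late cells, A_51_P250058 differed by -1.90 in Dunn (standard error 0.29, 95% interval -2.62 to -1.17, 3.72-fold) and by -1.18 in LM8 (standard error 0.29, interval -1.87 to -0.49, 2.26-fold). For A_55_P2053988 the difference was -2.22 in Dunn (interval -4.03 to -0.42) and -1.23 in LM8 (interval -1.86 to -0.61). Neither probe passed adjustment over all probes, with an adjusted p in limma of 0.314 and 0.766 in Dunn and of 0.131 and 0.0829 in LM8. Both exceeded 2-fold in both lines with an unadjusted p below 0.05, the level used in the study. No other member gene met this level in either line. With adjustment, 0 of 10 member genes were called in Dunn cells, where 0.00497% of all genes were, and 0 of 10 in LM8 cells, where 3.11% were. The methods' t-test with Benjamini-Hochberg adjustment also called 0 in each line, with 0.00998% of all genes called in Dunn and 1.24% in LM8. At an unadjusted p below 0.05 in limma, 2 members passed in each line, Epas1 and Egln3, where 8.12% of all genes did in Dunn and 19% in LM8. At the study's level the background was 5.58% of genes in Dunn and 8.88% in LM8 cells, against 1 of 10 members in each.

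On every slide the late array was below the early array for both probes. The differences of A_51_P250058 on slides 1, 2 and 3 were -2.19, -1.73 and -1.77 in Dunn and -1.62, -1.39 and -0.53 in LM8. Those of A_55_P2053988 were -3.38, -1.06 and -2.22 in Dunn and -1.47, -1.36 and -0.87 in LM8. In Dunn cells the brightest probe passed when the fit was restricted to probes well above background (adjusted p = 0.0179), with 1 fit over all 12 arrays (adjusted p = 0.0122) and with array quality weights (adjusted p = 0.048), out of a range of 0.0122 to 0.999 over all alternatives in limma. In LM8 cells it passed after normexp background correction (adjusted p = 0.0451), with a floor on dim signals (adjusted p = 0.0313) and among probes well above background (adjusted p = 0.0477), in a range of 0.0313 to 0.584.

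The probe A_55_P2077448 did not share the size of this difference. Late and early cells differed by -0.56 in Dunn (interval -1.29 to 0.17, adjusted p = 0.766 in limma) and by -0.13 in LM8 (interval -0.64 to 0.38, adjusted p = 0.759). In the unscaled table its difference was 0.42 in Dunn and 0.26 in LM8, so its direction depended on the scaling. Since the probes lie on the same array, their difference within an array does not depend on a scaling that takes 1 value off each array. It can change with quantile normalization or normexp background correction. After normexp, late minus early in Dunn was -1.62 for A_51_P250058, -0.33 for A_55_P2077448 and -1.22 for A_55_P2053988. A_51_P250058 minus A_55_P2077448 was 3.01, 3.14 and 2.75 on early against 1.32, 1.80 and 1.77 on late Dunn arrays. For LM8 it was 1.52, 2.09 and 2.01 against 0.26, 0.80 and 1.40. The late values lay below the early ones in each line. The mean went from 2.42 in early to 1.22 in late cells, a change of -1.2 (2-sided exact permutation of passage within the lines, p = 0.005, the smallest that 400 permutations allow, and 0.0075 adjusted over 3 probe pairs). With early and late exchanged only between the arrays of a slide and line, the change was negative in 6 of 6 such pairs (exact permutation p = 0.0312, the smallest that 64 arrangements allow, and 0.0468 adjusted).

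A_55_P2077448 minus A_55_P2053988 went from 0.43 to 1.82, a change of 1.39 (exact permutation p = 0.005, adjusted 0.0075, and 0.0312, adjusted 0.0468, within slides). The values of early and late cells did not overlap within either line. A_51_P250058 minus A_55_P2053988 was 2.85 in early and 3.04 in late cells, a change of 0.19 (exact permutation p = 0.615, and 0.562 within slides). Both tests were chosen after the levels had been seen. Where early and late values do not overlap in either line, each test gives its smallest possible p. The p-values of the pairs with A_55_P2077448 therefore restate that separation and add no support to it. The 3 pair differences also depend on each other, and the adjustment over them does not account for the choice after seeing the levels. Within 1 line, 3 against 3 arrays cannot go below p = 0.1 in this exact test, and both pairs with A_55_P2077448 reached 0.1 in Dunn and in LM8. All 3 probes carry the same Epas1 accession in the files, and the part of the transcript that each covers was not analysed here.

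**Figure D2:**
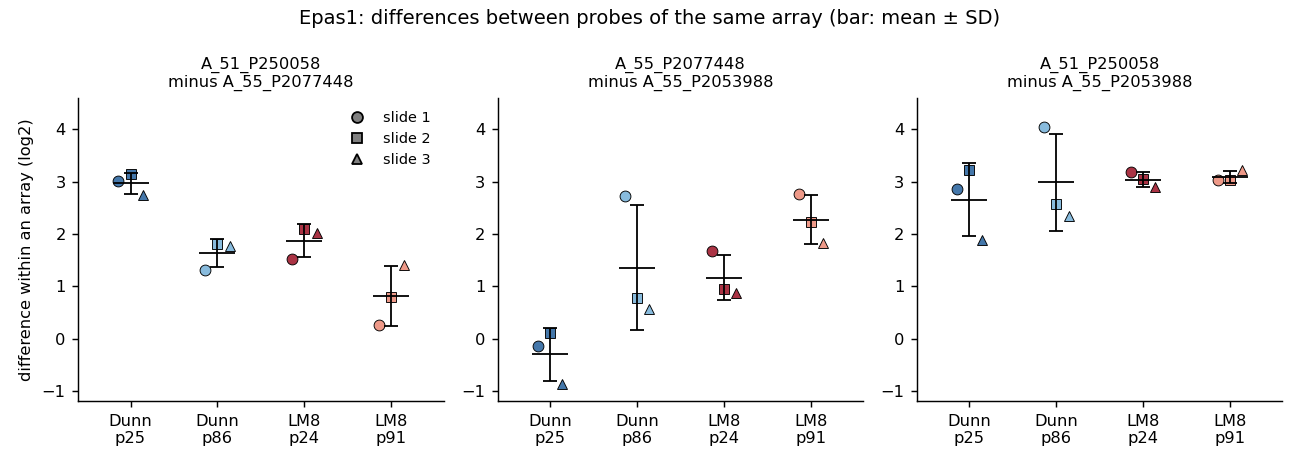
Difference between pairs of Epas1 probes on the same array (log2, vertical axis) in the 4 groups, with 1 point per array, shapes for slides and bars for the mean ± SD of 3 arrays. The pairs that hold A_55_P2077448 change by -1.2 and 1.39 from early to late cells, and the pair of the other probes changes by 0.19.

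Between the lines at early passage, Epas1 was lower in LM8 cells for A_51_P250058 (2.59 against 4.51, log2 change -1.93, standard error 0.28, 3.8-fold, adjusted p = 0.0189 in limma), and for A_55_P2053988 (log2 change -2.31, standard error 0.44, 4.95-fold, adjusted p = 0.0414). A_55_P2077448 differed by -0.84 (adjusted p = 0.0943). Egln3, described below with its family, was the other member called, so that 2 of 10 member genes were lower in early LM8 cells and none higher. The background was 5.32% of all genes in either direction and 3.82% lower. The differences of A_51_P250058 on the slides were -1.98, -1.7 and -2.11. With the slide as a block, all these calls were lost (adjusted p = 0.0815 for both Epas1 probes), and without slide 1 the adjusted p was 0.101 and 0.0951. In the unscaled table, in which all probes shifted by a median of 0.61, the 2 called Epas1 probes differed by -0.44 and -0.82. A_55_P2077448 differed by 0.65 there, so its direction rests on the scaling.

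At late passage 0 of 10 member genes were called between the lines, against 4.23% of all genes. In limma 2 members, Epas1 and Egln1, had an unadjusted p below 0.05, as had 26.4% of all genes, and the methods' t-test called 1, Epas1, against 8.09% of all genes. LM8 minus Dunn was -1.21 for A_51_P250058 (interval -2.06 to -0.36, adjusted p = 0.150 in limma), -0.40 for A_55_P2077448 and -1.32 for A_55_P2053988. Without scaling these differences were -0.32, 0.49 and -0.43, so the direction of A_55_P2077448 rests on the scaling. On the scaled values the late Dunn arrays lay above the late LM8 arrays on A_51_P250058 and A_55_P2077448, and the groups overlapped on A_55_P2053988. Without slide 1, A_55_P2053988 passed with -1.79 (adjusted p = 0.0238). The passage difference of Epas1 was 0.72 less negative in LM8 than in Dunn cells for A_51_P250058 (interval -0.17 to 1.60, adjusted p = 1 for this interaction in limma), so a difference between the lines in the change with passage was not shown.

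The other alpha subunits were not called at matched passages in limma as reported, while at early passage array quality weights called Hif1a (adjusted p = 0.0267) and Hif3a, and normexp and the floor on dim signals called Hif3a. Hif1a, whose product responds to acute hypoxia in nearly all cells, read 1.73, 1.91 and 2.11 on early and 1.42, 1.03 and 0.02 on late Dunn arrays. Its LM8 levels were 1.44, 0.89 and 1.17 (early) and 1.48, 0.97 and 0.60 (late). On the scaled values early Dunn cells lay above all other arrays, and the remaining groups overlapped. The passage difference was -1.09 in Dunn (interval -2.20 to 0.02, adjusted p = 0.766 in limma) and -0.15 in LM8 (interval -0.83 to 0.54, adjusted p = 0.792). On the slides the Dunn difference was -0.31, -0.88 and -2.08, so it ranged widely. LM8 minus Dunn was -0.75 at early passage (adjusted p = 0.112) and 0.19 at late passage (adjusted p = 0.765). Without scaling the passage difference of Hif1a was -0.11 in Dunn and 0.24 in LM8 cells. LM8 minus Dunn at early passage was then 0.73, so its direction rests on the scaling.

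Arnt, the partner of all alpha subunits, differed little between the groups on the scaled values. On A_55_P2100895 the Dunn means were 2.04 ± 0.35 (early) and 1.86 ± 0.20 (late) and the LM8 means 2.06 ± 0.26 (early) and 2.12 ± 0.16 (late; SD, n = 3). All groups overlapped. None of its differences exceeded 0.25 in size on this probe or 0.16 on A_55_P2100899, which had no value on the array of early Dunn replicate 2 because its spot was marked as an outlier. The interval of LM8 minus Dunn with passages pooled ran from -0.26 to 0.54 on the first probe and from -0.53 to 0.26 on the second. Without scaling the pooled differences were 1.33 (adjusted p = 0.0241 in limma) and 1.07 (adjusted p = 0.0397), so the small size rests on the scaling.

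Hif3a and Arnt2, a partner known mainly from neural tissue, were near background. The Hif3a probes ran from -9.06 to -3.14, with the signal above background on 1 late Dunn array and on 1 late LM8 array. The probe of Arnt2 ran from -8.12 to -3.56 and was above background on 0 of 3 early Dunn, 1 of 3 late Dunn, 2 of 3 early LM8 and 2 of 3 late LM8 arrays. The highest value of both genes was that of late Dunn replicate 1. For Arnt2, LM8 minus Dunn at late passage was -0.33 on all arrays and 1.79 without slide 1 (adjusted p = 0.0214 in limma). With passages pooled, Hif3a was among the genes called through A_55_P2025730 (adjusted p = 0.0287), a probe above background on 0 of 12 arrays, so no fold is given.

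Among the oxygen sensors, Egln3, the prolyl hydroxylase most strongly induced by HIF, had a scaled level that was lower in late than in early Dunn arrays and higher in late than in early LM8 arrays. Neither line nor their difference passed the test, and without scaling both lines had the same direction. On A_52_P387009 the early Dunn arrays read 1.25, 1.33 and 1.46 and the late ones 0.82, 0.68 and 0.44. For LM8 the levels were 0.09, 0.00 and -0.19 early, then 0.69, 0.71 and 0.51 late. Early Dunn cells were highest and early LM8 cells lowest without overlap, and the late cells of both lines lay between them and overlapped, at 0.64 ± 0.19 and 0.64 ± 0.11 (SD, n = 3). The second probe, A_55_P1960916, had the same order, with means of 1.12 ± 0.21, 0.33 ± 0.22, -0.43 ± 0.04 and 0.07 ± 0.12 in early Dunn, late Dunn, early LM8 and late LM8 cells.

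Late minus early was -0.70 in Dunn cells (interval -1.41 to 0.01) and 0.67 in LM8 cells (interval 0.22 to 1.12) on A_52_P387009. On slides 1, 2 and 3 it was -0.44, -0.65 and -1.02 in Dunn and 0.60, 0.71 and 0.70 in LM8. Neither line passed alone, with an adjusted p in limma of 0.766 in Dunn and 0.186 in LM8. The passage effects differed by 1.37 (standard error 0.29, interval 0.73 to 2.02, adjusted p = 0.115) and, on the other probe, by 1.28 (standard error 0.30, adjusted p = 0.176). At an adjusted p under 0.05, 0 of 10 member genes were called in this interaction, against 0.68% of all genes. Egln3 was the 1 member with an unadjusted p below 0.05, as had 7.79% of all genes, and it exceeded 2-fold, against 6.14% of genes at that level. Both probes passed after quantile normalization (adjusted p = 0.019 and 0.0406), among probes well above background (0.0155 and 0.0296) and with array quality weights (0.0123 and 0.0124), and the range over all alternatives was 0.0123 to 1 for the first probe. Without scaling the passage difference was 0.27 in Dunn and 1.05 in LM8 and the difference between the lines 0.78 on A_52_P387009, so the direction in Dunn cells rests on the scaling.

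Between the lines at early passage, Egln3 was lower in LM8 cells on A_55_P1960916 (log2 change -1.55, standard error 0.29, 2.92-fold, adjusted p = 0.0395 in limma). The other probe differed by -1.38 (standard error 0.28, adjusted p = 0.0512). The slides gave -1.56, -1.37 and -1.71 on the first and -1.17, -1.33 and -1.65 on the second of these probes. The call was lost with the slide as a block (adjusted p = 0.0815) and without slide 1 (adjusted p = 0.163), and without scaling the differences were -0.06 and 0.11. At late passage the difference was -0.01 (interval -0.56 to 0.55) on A_52_P387009 and -0.26 (interval -0.84 to 0.31) on A_55_P1960916.

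**Figure D3:**
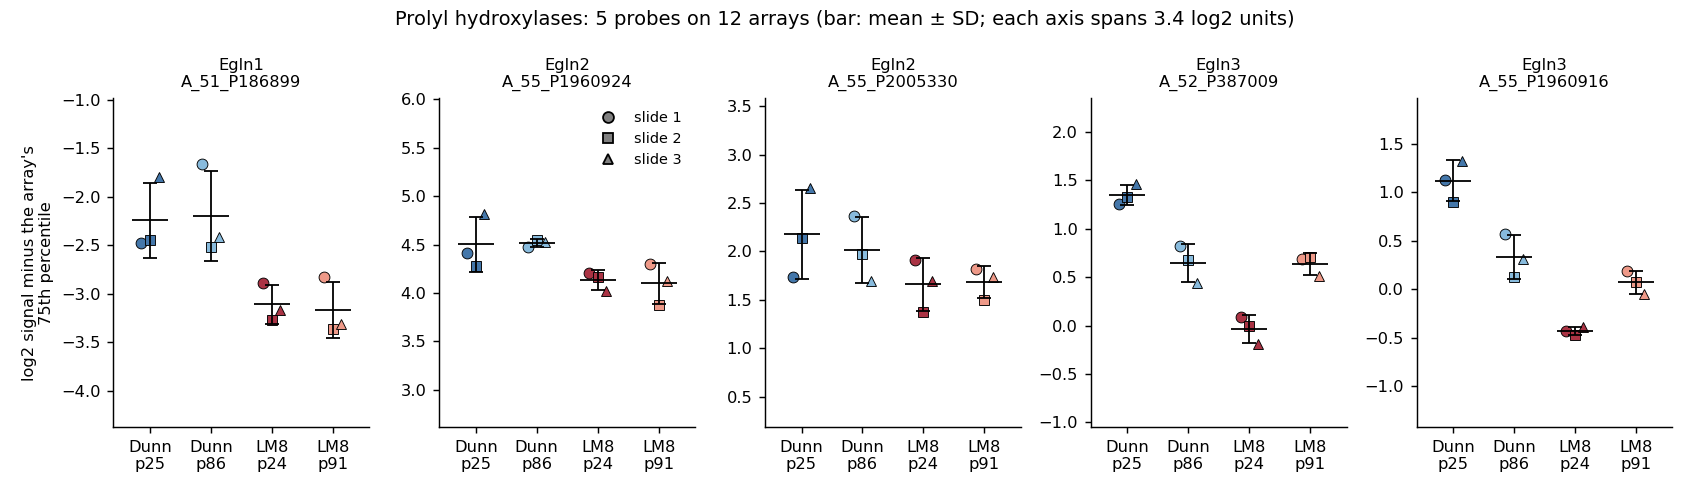
Levels of the prolyl hydroxylase probes (log2 signal minus the array's 75th percentile, each vertical axis spanning the same range) on the 12 arrays, with 1 point per array, shapes for slides and bars for the mean ± SD of 3 arrays. Egln3 was highest in early Dunn and lowest in early LM8 cells on both probes, Egln1 was lower in all LM8 than in all Dunn arrays, and the scaled Egln2 levels had pooled differences of -0.39 and -0.42 between the lines, neither called in limma as reported.

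Egln1, the main prolyl hydroxylase of HIF at normal oxygen, separated the lines and not the passages. Early Dunn arrays read -2.48, -2.45 and -1.80, and late Dunn arrays -1.66, -2.52 and -2.41. Early LM8 arrays read -2.89, -3.27 and -3.17, and late LM8 arrays -2.83, -3.36 and -3.31. Every LM8 array lay below every Dunn array. With passages pooled the difference was -0.92 (standard error 0.21, interval -1.38 to -0.45, 1.89-fold, adjusted p = 0.0134 in limma). The medians of all probes and of bright probes in this comparison were -0.80 and -0.33, and 51.6% of all genes were called in it. Without scaling the difference was 0.27, so the direction rests on the scaling, and without slide 1 it was -0.98 (adjusted p = 0.0507). Late minus early was 0.05 in Dunn cells (interval -0.93 to 1.03) and -0.06 in LM8 cells (interval -0.60 to 0.49). At matched passages Egln1 was not called. LM8 minus Dunn was -0.86 at early (adjusted p = 0.0948 in limma) and -0.97 at late passage (adjusted p = 0.208).

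Egln2, the prolyl hydroxylase that is not induced by hypoxia, was not called in limma as reported in any of the 6 comparisons. On A_55_P1960924 Dunn cells had means of 4.50 ± 0.29 (early) and 4.52 ± 0.04 (late), and LM8 cells 4.13 ± 0.10 (early) and 4.10 ± 0.21 (late; SD, n = 3). The passage difference was 0.01 in Dunn (interval -0.73 to 0.76) and -0.03 in LM8 (interval -0.51 to 0.44). With passages pooled, LM8 minus Dunn was -0.39 (adjusted p = 0.0653), and on A_55_P2005330 it was -0.42 (adjusted p = 0.107). The first of these passed among probes well above background (adjusted p = 0.0376 in limma) and in the methods' t-test (adjusted p = 0.0187), and array quality weights called Egln2 at early passage. Without scaling the pooled differences were 0.80 and 0.77, so their direction rests on the scaling.

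Vhl and Hif1an were not called in limma as reported in any comparison. Early Dunn arrays read 0.28, 2.03 and -0.39 for Vhl, the widest spread within a group of any member above background on all arrays (SD 1.25, n = 3), and late Dunn arrays 1.10, 1.48 and 1.08. Early LM8 arrays read 1.02, 1.59 and 1.2, and late LM8 arrays 1.55, 1.36 and 1.62. All groups overlapped the early Dunn cells. The pooled difference was 0.46 (interval -0.32 to 1.23, adjusted p = 0.292 in limma). Hif1an, which hydroxylates the transactivation domain of the alpha subunits, read -0.43, -0.52 and -0.34 on early and -1.89, -0.57 and -0.60 on late Dunn arrays. The LM8 range was -0.81 to -0.38 early and -0.63 to -0.53 late. Apart from late Dunn replicate 1, all arrays lay between -0.81 and -0.34. The early Dunn arrays lay above the late Dunn and the late LM8 arrays, and the other groups overlapped. Array quality weights called Vhl, higher in LM8, at early passage. The pooled Hif1an difference was 0.14 (interval -0.43 to 0.70, adjusted p = 0.668 in limma), and 1.33 (adjusted p = 0.0166) without scaling.

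**Figure D4:**
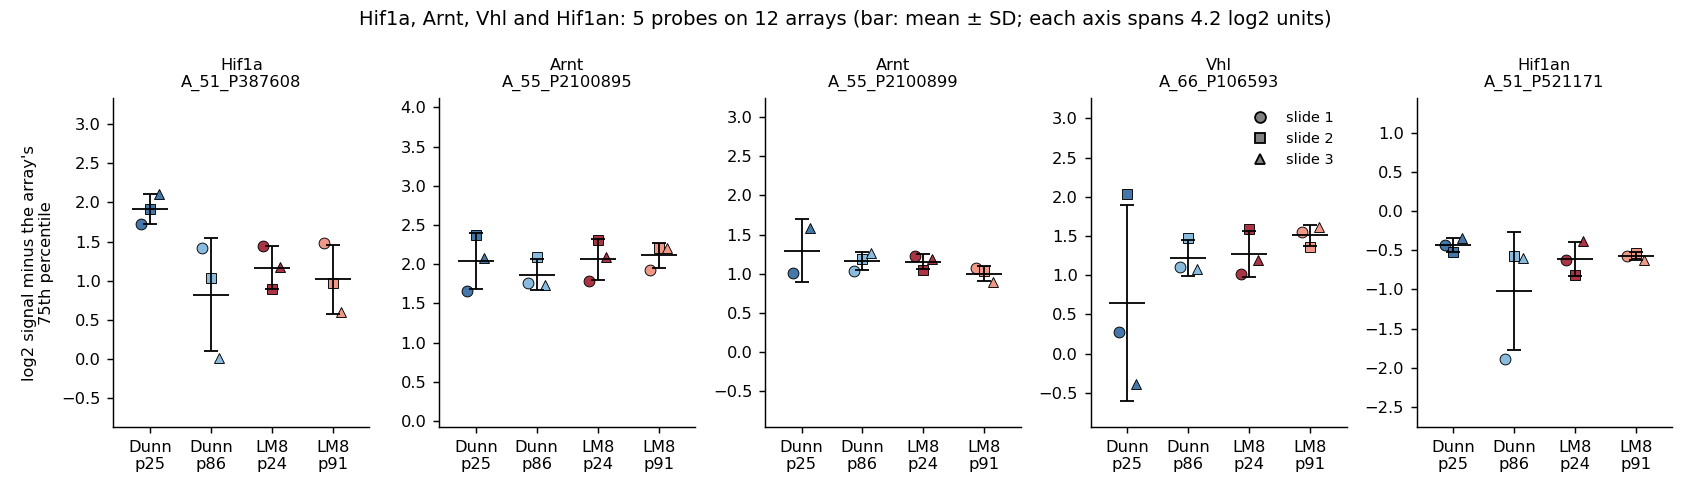
Levels of the probes of Hif1a, Arnt, Vhl and Hif1an (log2 signal minus the array's 75th percentile, each vertical axis spanning the same range) on the 12 arrays, with 1 point per array, shapes for slides and bars for the mean ± SD. On these scaled levels Hif1a was highest in early Dunn cells, at 1.92, and the late Dunn array of slide 1 stood apart for Hif1an, at -1.89.

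With passages pooled, 4 of 10 member genes were called, all of them lower in LM8 cells, where 51.6% of all genes were called and 45.2% were lower. They were Epas1, Egln1, Egln3 and, near background, Hif3a. The members' share was not above the background. All 3 Epas1 probes were called, with log2 changes of -1.57 (standard error 0.49, adjusted p = 0.0288 in limma), -0.62 (standard error 0.20, adjusted p = 0.0308) and -1.82 (standard error 0.63, adjusted p = 0.0371) for A_51_P250058, A_55_P2077448 and A_55_P2053988. Of 23 alternatives, the call held in 13, 14 and 11 for these probes in turn. Quantile normalization lost A_51_P250058 (adjusted p = 0.0579) and A_55_P2053988 (0.089), and the percentile over bright probes lost all 3 (0.0522, 0.0667 and 0.0599 in the same order). Dunn and LM8 arrays overlapped on each of them. Egln3 was called by both probes, with -0.69 (adjusted p = 0.0406) and -0.91 (adjusted p = 0.0236), although its late cells did not differ beyond their spread. Without slide 1, 0 of 10 members were called in this comparison. The median change over the brightest probes of the members was -0.34, against -0.68 over all genes.

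**Figure D5:**
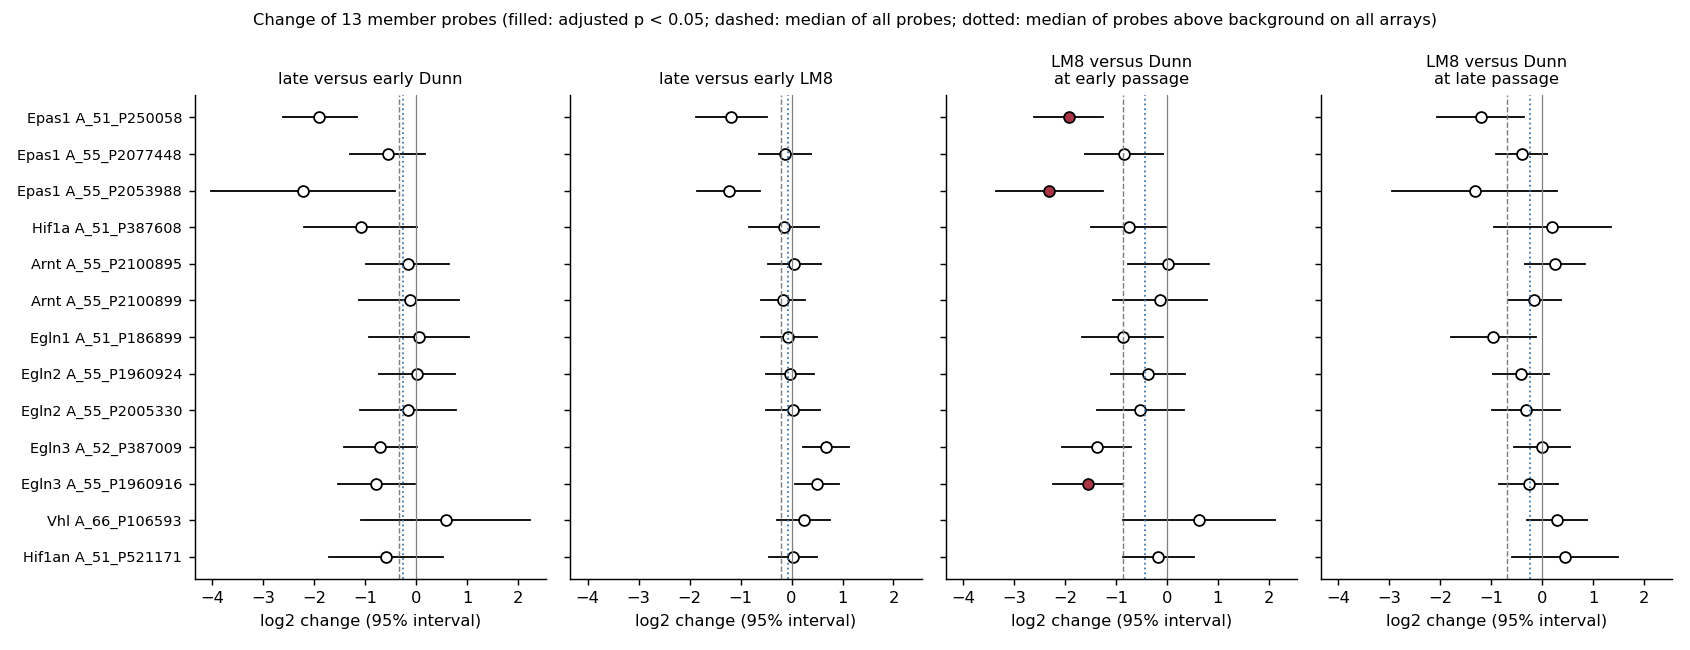
Log2 change (horizontal axis, point) with its 95% interval (line) of the 13 probes of members other than Hif3a and Arnt2 in 4 comparisons, where filled points have an adjusted p under 0.05 and the dashed and dotted lines give the median change of all probes and of probes above background on all arrays. The filled points are A_51_P250058 and A_55_P2053988 of Epas1 and A_55_P1960916 of Egln3 in LM8 versus Dunn cells at early passage, at -1.93, -2.31 and -1.55.

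Genes around the HIF pathway were examined in 4 lists. Of 16 genes for the turnover of HIF protein and its coactivators, 0 were called with passage in either line (limma), and 2 had an unadjusted p below 0.05 in each, where 8.12% of all genes did in Dunn and 19% in LM8 cells. P4htm, a transmembrane prolyl hydroxylase related to the Egln enzymes, had the smallest p in both. Dunn cells had 0.67 ± 0.34 (early) and -2.15 ± 0.35 (late), and LM8 cells -0.80 ± 0.13 (early) and -1.62 ± 0.12 (late; SD, n = 3). Late minus early was -2.82 in Dunn (standard error 0.36, adjusted p = 0.213 in limma) and -0.82 in LM8 (standard error 0.19, adjusted p = 0.103). In the pooled comparison of the lines 1 gene of this list was higher and 4 were lower in LM8, against 51.6% of all genes called in either direction and 45.2% lower. Among the lower genes was Cited2, a competitor of HIF for its coactivators, on A_55_P2120577 (log2 change -0.97, standard error 0.20, adjusted p = 0.00673 in limma). The median of all probes in this comparison was -0.80. Another Cited2 probe, A_55_P2116621, hardly differed between the lines. Its means were -3.16 (early) and -2.86 (late) in Dunn and -3.32 (early) and -2.89 (late) in LM8 cells.

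Of 40 genes commonly induced by hypoxia, 0 were called with passage in Dunn cells (4 at an unadjusted p below 0.05 in limma, against 8.12% of all genes) and 1 in LM8 cells, where 3.11% of all genes were. The latter was Aldoc, a glycolytic aldolase, which rose by 1.61 in late LM8 cells (standard error 0.20, 3.06-fold, adjusted p = 0.0106 in limma). In Dunn cells Aldoc had -0.99 ± 0.25 at early and 1.74 ± 0.30 at late passage (SD, n = 3), a difference of 2.73 (adjusted p = 0.200). Bnip3, a mitophagy gene, had 4.15 ± 0.21 in early and 2.94 ± 0.25 in late Dunn cells (adjusted p = 0.610), so the 2 targets differed in direction. The list's median change was -0.21 in Dunn and -0.07 in LM8, against -0.35 and -0.20 over all genes. Between the lines with passages pooled, 2 were higher and 15 lower in LM8 (45.2% of all genes were lower), with a median of -0.32 against -0.68. Slc16a3, the exporter of lactate, was higher in LM8 by 5.37 (standard error 0.27, 41.4-fold, adjusted p = 1.05e-07), from -1.17 to 4.2, and was 4.79 higher at early and 5.96 higher at late passage. Ndrg1, a stress-induced gene, was lower (log2 change -1.33, standard error 0.18, adjusted p = 5.07e-04).

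Among 22 genes often assigned to HIF-2, the factor that holds Epas1, 0 were called with passage in Dunn cells (1 at an unadjusted p below 0.05 in limma, against 8.12% of all genes) and 2 were lower in late LM8 cells, where 3.11% of all genes were called. These were Lox, a collagen crosslinking oxidase, with a change of -1.61 on A_55_P2032678 (standard error 0.18, 3.06-fold, adjusted p = 0.00643 in limma), and Slc40a1, the iron exporter ferroportin, with -2.15 (standard error 0.32, adjusted p = 0.0222). On the same probe Lox went from -0.16 ± 0.49 to -5.12 ± 0.75 in Dunn cells (SD, n = 3), where late cells were above background on 1 of 3 arrays (adjusted p = 0.175). Its change with passage differed between the lines by 3.35 (standard error 0.53, adjusted p = 0.0308). Between the lines with passages pooled, 4 genes of this list were higher and 13 lower in LM8 (51.6% of all genes were called and 45.2% lower), with a median of -1.01 against -0.68. The largest differences were those of Pdgfb, a growth factor for mesenchymal cells, with -6.68 (standard error 0.20, adjusted p = 3.08e-09), and of Slc40a1 with -6.18 (standard error 0.50, adjusted p = 7.57e-06). Lox differed the other way, with a level of 0.35 in LM8 and -3.70 in Dunn cells on A_66_P138929 (log2 change 4.06, standard error 0.93, adjusted p = 0.0124 in limma). The Dunn means on this probe were -1.75 at early and -5.65 at late passage, the latter above background on 1 of 3 arrays. On A_55_P2032678, early Dunn (mean -0.16) and late LM8 cells (mean -0.03) overlapped.

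Of 17 other genes of the same protein family (bHLH-PAS), 0 were called with passage in Dunn cells (0 at an unadjusted p below 0.05 in limma, against 8.12% of all genes) and 3 were lower in late LM8 cells, where 3.11% of all genes were called. The latter were Ahr, the receptor for dioxin, its repressor Ahrr and Npas2, each above background on at most 2 of 3 early and 0 of 3 late arrays. With dim late signals raised to a floor, their folds were 1.93, 1.53 and 1.54. These are not firm bounds, as the early means include signals below background. With passages pooled 1 of this list was higher and 11 were lower in LM8, against 51.6% of all genes called and 45.2% lower. The higher gene was Clock, a circadian factor, with a change of 2.40 (standard error 0.43, adjusted p = 0.00332 in limma).

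Over the 12 arrays and 11294 genes with a probe above background in at least 1 group, the genes with a pattern most like that of A_51_P250058 of Epas1 were Cdk10 (Pearson r = 0.98), Tpra1 (0.965), Cln6 (0.96), Esyt1 (0.96) and Scarf2 (0.96). The Dunn means of Cdk10 were 2.61 (early) and 1.12 (late) and its LM8 means 1.24 (early) and 0.60 (late). Most like A_52_P387009 of Egln3 were Arl6ip1 (r = 0.974), Cited1 (0.968), Lbh (0.96), Eif1ad (0.959) and Smug1 (0.956). The Dunn means of Cited1 were 1.61 (early) and 0.47 (late) and its LM8 means -0.47 (early) and 0.45 (late). These correlations describe the order of 4 groups with shared slides and scaling and carry no test.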

How the data were processed

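Gene expression was measured in the mouse cell lines Dunn and LM8 at early and late passage, with 3 arrays per group and 12 arrays in all. RNA was labelled with Cy3 and hybridised to 1-colour Agilent mouse arrays. The authors deposited the output of Agilent Feature Extraction (version 10.7.3 per the submitters' processing notes), whose processed signal is an intensity after background subtraction, with no scaling between arrays. A further table of the authors, with all arrays, holds the same intensities, rounded, and was used as the unscaled alternative. The scaling used in the study is not given in the sources used here. The study's methods and the labels name different kits for RNA isolation.

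From these intensities, control spots and spots marked as outliers (133 to 1483 per array) were removed. The log2 values of 43020 spots gave the means of 39429 probes, from which the log2 of each array's 75th percentile was taken off. Accessions were matched to the RefSeq annotation of GRCm38.p6, which named 26581 probes (67.4%). For genes with several probes, each is named by its identifier. The files' grid was annotated on another build, so that no positions were used except those of the RefSeq promoters. A spot well above background is one that the scanner software marked as such.

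Each comparison was a linear model in limma 3.58.1 (R 4.3.3, functions lmFit and eBayes) on the arrays of the groups compared and without a block, with Benjamini-Hochberg adjustment over all probes. A gene was called when at least 1 probe had an adjusted p under 0.05. The difference of the passage effect was the line by passage interaction, fitted to the 12 arrays. Intervals are 95% intervals of limma. The number of arrays limits the precision. For a probe below background throughout a group, a fold against a floor is given. Each signal of that group under the dimmest probe above background on its array was raised to that value. Such a fold is a bound only where the other group was above background throughout. Besides the members, up to 4 genes per list and comparison with the largest change among those called without overlap of the groups were eligible to be named (where fewer than 2 passed, up to 2 with the smallest p), and 5 genes most correlated with Epas1 and with Egln3. The members and lists were chosen with earlier results of these data known. The steps were tested on simulated data.

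The replicate number marks the slide. For each pair of arrays on a slide, the correlation of their departures from the group means was taken. It exceeded 0.1 in 12 of 18 pairs and ran from -0.246 to 0.679. Early and late Dunn arrays of a slide had 0.679, 0.636 and 0.227 on slides 1, 2 and 3, so arrays of a slide often departed together. The main fits nevertheless left the slide out, and their p-values do not account for this. The slide was used as a block in an alternative, and differences within slides are given. Other alternatives were quantile normalization, a 75th percentile over probes above background on all arrays, normexp background correction (offset 50, on the median spot signal, since the files hold no mean signal), raising dim signals to a floor, keeping probes above background in at least 1 group, 1 fit over all 12 arrays, array quality weights, a plain t-test and leaving out each array. The study's methods name a t-test together with limma, so the plain t-test may differ from the one used there. Leaving out slide 1 and both permutation tests of Epas1 probe pairs were chosen after seeing the data. Tables and plots were made with Python 3.11.15, pandas 2.3.3 and matplotlib 3.10.9.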

Additional observations from a re-analysis of the deposited data

Results flagged for a closer look

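Hif1an on late Dunn replicate 1 had a level of -1.89, a gap of 0.833 of the whole range of the 6 Dunn arrays to the nearest of the others, which exceeds Dixon's 95% value for 6 arrays. Of 34 sets of a member probe and a line that were examined in this way, 1 was marked, and chance marks about 5% of such sets.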

How the results depend on the processing

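Counts of member genes at an adjusted p under 0.05 depended on the setting. For late versus early Dunn cells the count was 0 as reported and 1 among probes well above background, with 1 fit over all 12 arrays and with array quality weights. For LM8 it was 0 as reported and 1 after normexp, with a floor on dim signals and among probes well above background. Between the lines with passages pooled it was 4 as reported, 2 with the percentile over bright probes, 2 without scaling (Arnt and Hif1an, both higher in LM8 and neither among the 4 reported) and 0 without slide 1. At early passage it was 2 as reported, 1 with the percentile over bright probes, 0 without scaling, 0 without slide 1 and 7 with array quality weights. With the slide as a replicate block it was 0 at early passage, where the members called otherwise had an adjusted p of 0.0815 in limma, and no other count of member genes moved past 1.5 times under the block. At late passage it was 0 as reported, 1 among probes well above background, with 1 fit over all 12 arrays, with array quality weights and in the plain t-test, and 2 without slide 1. For the difference of the passage effects it was 0 as reported and 1 after quantile normalization, among probes well above background and with array quality weights. Leaving out 1 replicate at a time gave 2 to 4 for the pooled lines, 0 to 4 at early passage and 0 to 1 at late passage, and 0 in the other comparisons.

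In the pooled comparison of the lines, values without scaling turned the sign, past the threshold in 1 of the settings, for Epas1 A_55_P2077448 (0.57), Arnt A_55_P2100899 (1.07), Egln1 (0.27), Egln3 A_52_P387009 (0.50) and Egln3 A_55_P1960916 (0.28). With neither setting past it, the sign also turned for both probes of Egln2 (0.80 and 0.77), for Hif1a (0.91), for Arnt2 (1.06) and for 2 probes of Hif3a. The unscaled values shift all probes by a median of 0.39 in this comparison. For Arnt2 at late passage, leaving out slide 1 gave 1.79 in place of -0.33. The cause of these differences was not tested. Of 1880 alternative values of member probes, 1744 kept their side of the threshold, of which 168 turned sign with neither setting past it, 51 passed it only in the alternative, 79 lost it and 6 turned sign with a setting past it. Signal near background limits what can be said of Hif3a and Arnt2.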
